A study of Mus musculus with 16 samples.

Results

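Liver long non-coding transcripts of mice given metformin on high-fat feed were compared with those of mice on ordinary feed, to see which differences from ordinary feed were present under the drug. The 8 libraries of the comparison, of 16 in the series, were chosen by their diet label alone. The 4 metformin libraries came from mice given high-fat feed and, by gavage, metformin at 200 mg/kg/day. The other 4 came from mice given ordinary feed, for which the labels record neither drug nor gavage. High-fat feed without a drug (4 libraries) is used below for the test of the difference, and the group given high-fat feed and, by gavage, resveratrol at 100 mg/kg/day (4 libraries) enters the fit and is quoted beside a few results. All mice were C57BL/6J, and the age label of every library is postnatal day 21. Titles carry prefixes whose meaning the labels do not give, 2 among the ordinary-feed libraries (3 share 1), 3 among the metformin libraries (2 share 1) and 1 among the high-fat libraries. If a prefix marks a cage or litter, libraries that share it are not independent, and the p-values below do not allow for that. The labels do not state sex, length of feeding or time of collection. Feed, drug and gavage differ together between the metformin and ordinary-feed mice, so their parts in a difference cannot be told apart.

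Metformin is a biguanide that lowers blood glucose chiefly by reducing glucose output from the liver. It inhibits complex I of the respiratory chain, and the fall in cellular energy activates the kinase AMPK, which restrains lipid and sterol synthesis. High-fat feeding drives the liver the other way, towards fat storage, altered sterol handling and weakened control of gluconeogenesis. Long non-coding RNAs are transcripts without a protein product. Many in liver overlap metabolic genes in introns, in 3' UTRs or on the opposite strand. The library kit is not described as keeping strand, so such a transcript and the gene it overlaps can share reads. Gene names below therefore locate a transcript and do not stand for the mRNA.

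Levels are FPKM, reads scaled by the length of the transcript and by the total reads of the library. Features reaching 1 FPKM in at least 4 of the 16 libraries were tested, 7413 in all. Of them, 6393 were NONCODE transcripts, 899 Ensembl genes and 121 assembled transcripts. Differences were tested with limma on log2(FPKM + 1), and a feature was called at a Benjamini-Hochberg adjusted p under 0.05. Differences, standard errors (SE) and 95% intervals are on that log2 scale, which understates the change of low features. Under metformin, 22 features differed from ordinary feed (0.297% of those tested), with 7 higher (0.0944%) and 15 lower (0.202%). In all 22 the 4 metformin values lay on one side of the 4 ordinary-feed values, which was so for 13.4% of the tested features. Without adjustment, 1488 features had p under 0.05, of which 349 were higher and 1139 lower. The same fit called 1085 features (14.6%) between high-fat feed alone and ordinary feed, 210 higher (2.83%) and 875 lower (11.8%). Both comparisons share the 4 ordinary-feed libraries. The difference between them is the comparison of metformin with high-fat feed alone, which called 2 features (0.0270%), 1 in each direction (0.0135%), with 554 at an unadjusted p under 0.05.

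Many of the 22 calls were lost when 1 library was left out. Without metformin library 1, 2 or 4, only 4, 2 and 3 of the 22 were called, and without ordinary-feed library 2 or 3 only 4 and 3. Leaving out metformin library 3 kept 15, ordinary-feed library 1 kept 10 and ordinary-feed library 4 kept 17. A Gldc intron transcript was called in all 17 alternatives run, an Agfg1 3' UTR transcript in all 16 in which it was tested, and a Ube2k intron transcript in 14 of 17. No call changed direction. The Agfg1 transcript and C430039J01Rik, at Pik3c2a, reached 1 FPKM in the 4 ordinary-feed libraries only. These 2 passed the filter through the group where they are high and so had to differ, and their calls add no support. NONMMUT103630.1, near Gm4841, reached 1 FPKM in 4 metformin and 3 high-fat libraries only. It needed its higher group to pass the filter, so its call adds no support either. The 22 are described below by the role of the gene at their place.

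**Figure D1:**
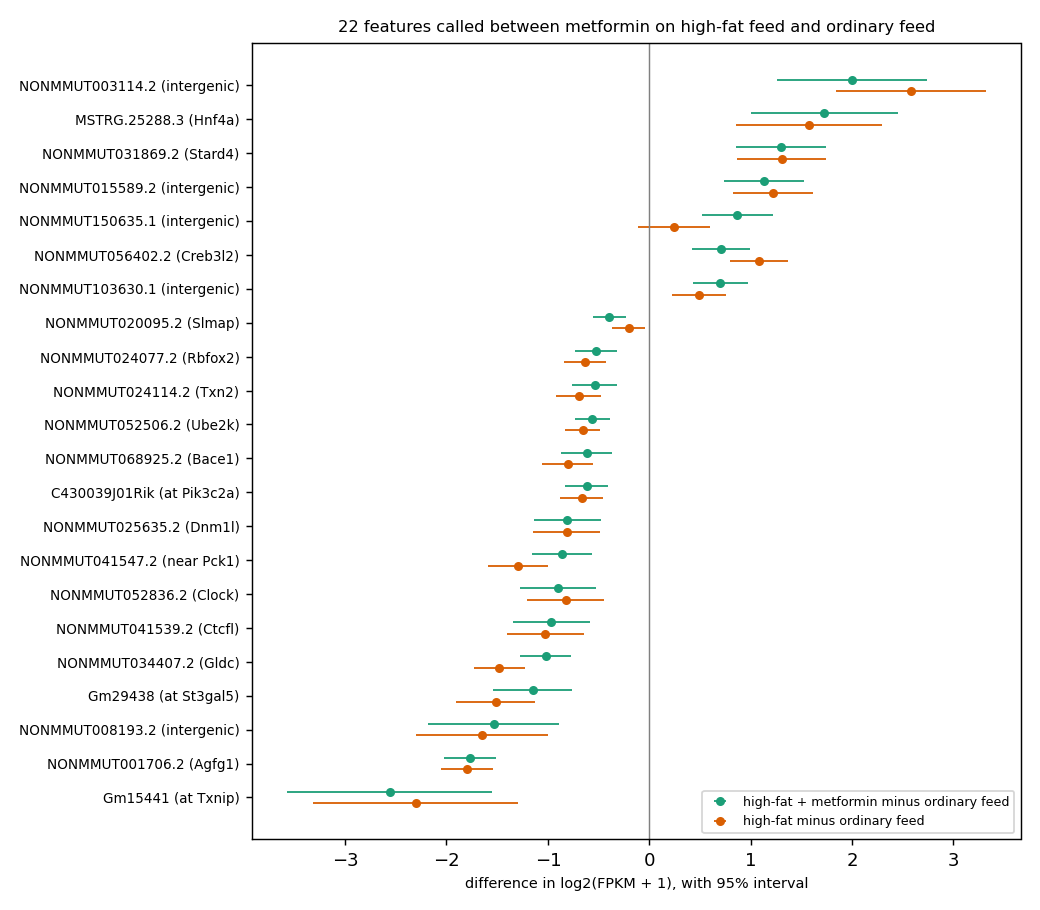
Differences in log2(FPKM + 1) from ordinary feed for the 22 called features, with 95% intervals, under metformin on high-fat feed (green) and on high-fat feed alone (orange). Features were chosen on the green values, and both colours share the 4 ordinary-feed libraries. NONMMUT150635.1 is the one orange interval that reaches across 0.

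Gm15441, a non-coding RNA transcribed antisense to Txnip, had the lowest difference of the 22 on the log2 scale. Txnip encodes a thioredoxin-binding protein that restrains glucose uptake, and its transcription is raised by glucose through the factors ChREBP and MondoA. They bind a carbohydrate response element, a pair of E box-like sequences set 5 bases apart. The Gm15441 gene (ENSMUSG00000074398, chr3:96555765-96566801, GRCm38, minus strand) spans Txnip (plus strand, chr3:96557957-96561883). One Gm15441 exon, chr3:96557286-96558397, is annotated across the start of Txnip and its promoter. Where the Gm15441 reads lie within the gene was not measured. The 250 bases before the Txnip start, chr3:96557707-96557956 on the plus strand, are shown because that exon covers them. Capitals mark the paired boxes, 85 to 69 bases before the start (RefSeq promoter table, GRCm38.p6).
Txnip promoter: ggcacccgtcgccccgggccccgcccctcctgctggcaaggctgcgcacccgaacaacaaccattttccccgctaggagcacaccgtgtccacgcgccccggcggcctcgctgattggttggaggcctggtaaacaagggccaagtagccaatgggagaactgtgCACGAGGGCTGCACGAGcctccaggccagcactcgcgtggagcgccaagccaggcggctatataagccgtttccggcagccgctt
A pair of CACGAG boxes at this spacing, searched on both strands, occurred in 1 of 32851 RefSeq promoter windows of 300 bases (0.003%). That 1 window is the one of Txnip, whose own boxes and spacing were searched, so it had to be found. Other forms of the element were not counted, so the share does not tell how rare such elements are. The match describes the sequence only.

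In the 4 ordinary-feed libraries Gm15441 stood at 30.3, 5.54, 36.2 and 24.5 FPKM, and in the 4 metformin libraries at 1.90, 1.51, 3.49 and 3.92. The groups did not overlap, but ordinary-feed library 2 lay far nearer to the metformin values than its 3 fellows did. Gm15441 fell by 2.56 (SE 0.474, limma adjusted p = 0.0444). On high-fat feed alone its values were 2.16, 5.11, 3.39 and 2.85, and its difference from ordinary feed was -2.30 (adjusted p = 0.00926). Metformin and high-fat feed alone differed by -0.26, with a wide 95% interval, from -1.27 to 0.76. The other tested feature in the stretch, NONMMUT044301.2 in a Txnip exon, was low in both groups (1.43 ± 1.02 and 0.913 ± 0.115 FPKM, SD, n = 4) and did not pass (adjusted p = 0.552). Leaving out any of ordinary-feed libraries 1, 3 and 4 or metformin libraries 1, 2 and 4 ended the Gm15441 call.

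Close to Pck1, which encodes the cytosolic PEPCK that commits carbon to gluconeogenesis, lies a called intergenic transcript. NONMMUT041547.2 (chr2:173142376-173148383), ending 4.67 kb upstream of Pck1, stood at 4.03, 3.64, 2.94 and 1.99 FPKM on ordinary feed. Under metformin it stood at 1.32, 0.949, 1.33 and 1.38. The metformin values were all below the lowest ordinary-feed value, with library 2 lowest. The transcript fell by 0.86 (SE 0.139, limma adjusted p = 0.0191). High-fat feed alone was lower still, at 0.873, 0.476, 0.589 and 0.709 FPKM, none of which reached a metformin value. That difference between the high-fat groups, 0.44 with a 95% interval from 0.14 to 0.73, did not pass over all features (adjusted p = 0.420).

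The neighbouring call, NONMMUT041539.2 (chr2:173119442-173124287), spans part of Ctcfl, which encodes the testis paralogue of the insulator protein CTCF. It stood at 3.27, 3.08, 4.01 and 3.26 FPKM on ordinary feed and at 1.00, 0.757, 1.65 and 1.75 under metformin. The groups were well apart, and the transcript fell by 0.96 (limma adjusted p = 0.0444). High-fat feed alone stood at 1.17 ± 0.258 FPKM (SD, n = 4). Within 20 kb of the Pck1 transcript 12 other features were tested, several of them overlapping it. Their median difference was -0.85, with 11 below 0 and 1 above (1.06), and only the Ctcfl transcript was called. NONMMUT041546.2, which ends 4.36 kb upstream of Pck1, lay just outside the threshold (-0.81, adjusted p = 0.0509). It passed the filter only with its ordinary-feed libraries, where it is high, so it adds no support.

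The Gldc intron transcript was called under every alternative. Gldc encodes glycine decarboxylase, the mitochondrial enzyme that opens the glycine cleavage system and feeds one-carbon metabolism. NONMMUT034407.2 (chr19:30164751-30165769) stood at 3.30, 2.91, 3.55 and 3.46 FPKM on ordinary feed, and at 1.63, 1.06, 1.02 and 0.838 under metformin. Every metformin value was well under the lowest ordinary-feed value, and the transcript fell by 1.02 (SE 0.117, limma adjusted p = 0.00124). Over the 17 alternatives its adjusted p ran from 0.000268 to 0.0284. On high-fat feed alone it was at 0.649, 0.568, 0.344 and 0.626 FPKM, a difference from ordinary feed of -1.48. The metformin libraries were above those values in every case, by 0.46 with a 95% interval from 0.21 to 0.71, but this did not pass over all features (adjusted p = 0.269). A second Gldc transcript, NONMMUT106118.1, lay just outside the threshold at -0.95 (adjusted p = 0.0545).

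An Agfg1 3' UTR transcript was detected at 1 FPKM on ordinary feed only, the group through which it entered the test. Agfg1 encodes an Arf GTPase-activating protein with nucleoporin-like repeats. NONMMUT001706.2 (chr1:82896322-82901182) stood at 2.42, 2.35, 2.73 and 3.52 FPKM on ordinary feed. Under metformin it was nearly absent, at 0.0787, 0.140, 0.0892 and 0.0647 FPKM. It fell by 1.77 (SE 0.1199, limma adjusted p = 2.18e-06), and the ratio of the group means was 0.0338. The other high-fat groups were as low, at 0.0360 to 0.112 FPKM on high-fat feed alone and 0.0808 to 0.103 with resveratrol, so the RNA was above 1 FPKM in ordinary-feed libraries only. Metformin and high-fat feed alone differed by 0.03, with a 95% interval from -0.23 to 0.28.

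**Figure D2:**
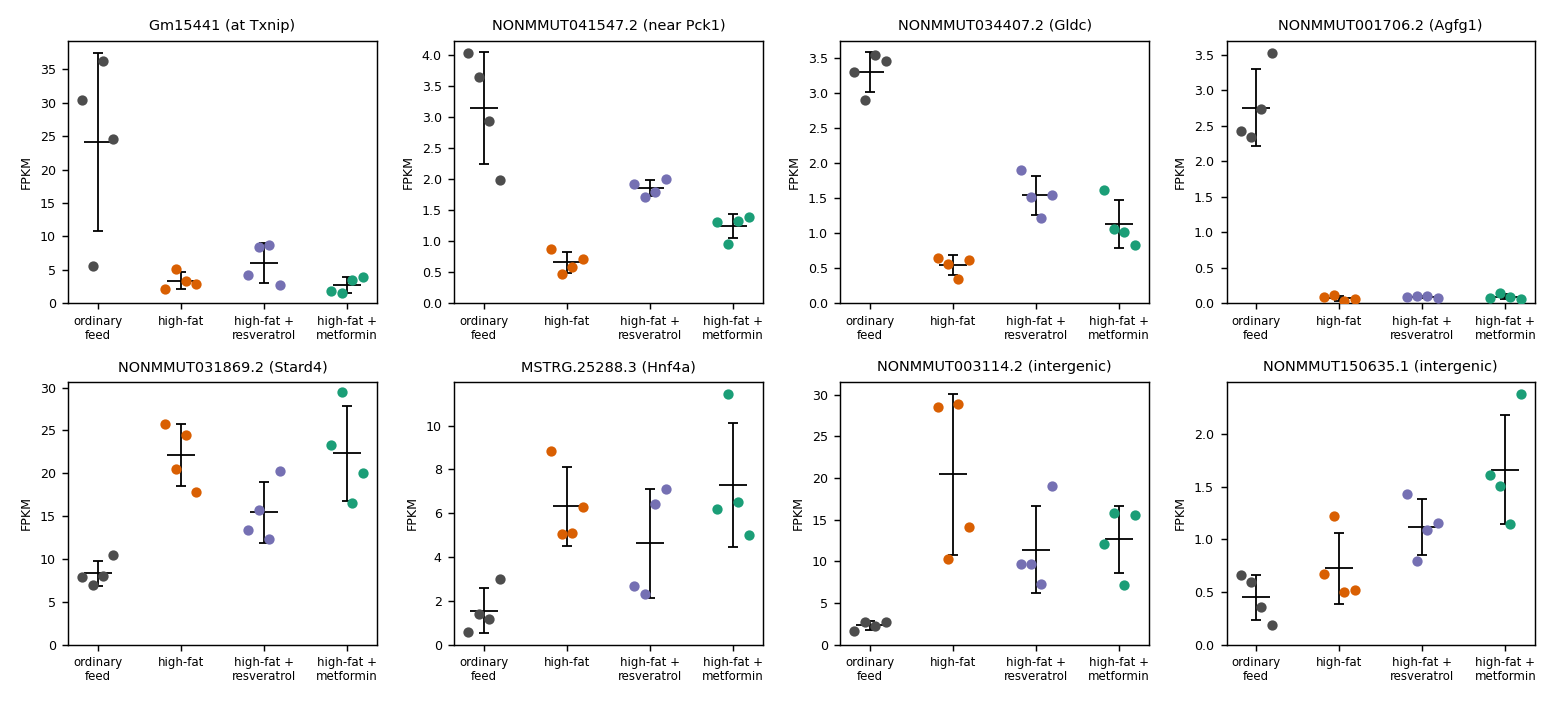
FPKM of 8 called features in each of the 16 libraries by group, with the group mean and SD (black). Metformin points do not overlap ordinary-feed points in any panel. The Gldc and Pck1 transcripts lie between the high-fat and ordinary-feed groups, while the Agfg1 transcript is near 0 in all 12 high-fat libraries.

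The 3 features that rose and overlap genes lie at Stard4, Creb3l2 and Hnf4a. Stard4 encodes a carrier that moves cholesterol between membranes and is a target of the sterol-regulated transcription factor SREBP2. Its 3' UTR transcript NONMMUT031869.2 (chr18:33199357-33202444) stood at 7.90, 7.005, 8.07 and 10.4 FPKM on ordinary feed and at 23.3, 29.5, 16.5 and 19.98 under metformin. All metformin values exceeded the highest ordinary-feed value, and the transcript rose by 1.30 (SE 0.207, limma adjusted p = 0.0191), a ratio of means of 2.67. High-fat feed alone gave 25.7, 20.5, 24.4 and 17.8 FPKM, all within the range of the metformin libraries. The difference between the high-fat groups was -0.00, with a 95% interval from -0.45 to 0.44.

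Creb3l2 encodes a transcription factor held in the endoplasmic reticulum membrane and released by cleavage when secretory load rises. Its 3' UTR transcript NONMMUT056402.2 (chr6:37327381-37331285) stood at 2.94, 3.47, 2.90 and 3.65 FPKM on ordinary feed and 6.18, 5.55, 4.74 and 7.48 under metformin. The groups did not overlap, and it rose by 0.71 (SE 0.135, limma adjusted p = 0.0480). High-fat feed alone stood at 7.97 ± 0.672 FPKM, against 5.99 ± 1.16 under metformin (SD, n = 4), with 1 metformin library among the high-fat values. The difference of -0.37 (95% interval from -0.66 to -0.08) did not pass over all features (adjusted p = 0.507).

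Hnf4a encodes the nuclear receptor that maintains hepatocyte gene expression. An assembled transcript there, MSTRG.25288.3 (chr2:163514694-163519613), stood at 0.593, 1.41, 1.18 and 3.01 FPKM on ordinary feed and 6.20, 11.4, 6.52 and 5.02 under metformin. It rose by 1.73 (SE 0.338, limma adjusted p = 0.0491), close to the threshold. The ordinary-feed libraries varied widely among themselves, but none reached the metformin values. NONMMUT110083.1, which overlaps it, stood at 6.09 ± 3.46 and 14.8 ± 3.41 FPKM and did not pass (1.26, adjusted p = 0.0640). All 4 other tested features within 20 kb were higher under metformin, by 0.20 to 1.26, and none was called. Of these, 3 overlap MSTRG.25288.3 and can share its reads.

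Clock, which encodes the activating partner of BMAL1 in the circadian clock, held a called intron transcript. NONMMUT052836.2 (chr5:76233119-76233778) stood at 3.07, 4.72, 3.68 and 2.86 FPKM on ordinary feed and 1.74, 1.81, 1.25 and 1.02 under metformin. Without overlap, it fell by 0.90 (SE 0.176, limma adjusted p = 0.0491). A transcript in part of Per3, a repressor of the clock, missed the threshold in the other direction (1.37, adjusted p = 0.0545). Its FPKM was 0.625 ± 0.658 on ordinary feed and 2.99 under metformin, with one ordinary-feed library, at 1.61, apart from the other 3 at or below 0.355. The part of the hour of collection was not tested.

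Next come Txn2 and Dnm1l. Txn2 encodes the mitochondrial thioredoxin, and its partly exonic transcript NONMMUT024114.2 (chr15:77917146-77920390) went from 3.14 ± 0.403 FPKM to 1.85 ± 0.243 (SD, n = 4). It fell by 0.54 (SE 0.105, limma adjusted p = 0.0491). None of the 8 fits without 1 library kept that call. Dnm1l encodes the GTPase that drives mitochondrial fission. NONMMUT025635.2 there (chr16:16341946-16344709) stood at 2.01, 2.69, 2.17 and 2.12 FPKM on ordinary feed and 0.907, 0.554, 1.47 and 0.602 under metformin, with metformin library 3 highest of its group. It fell by 0.81 (SE 0.155, limma adjusted p = 0.0480). Under median-ratio scaling or quantile normalization of the libraries the Dnm1l transcript was no longer called. The Txn2 and Dnm1l transcripts stood at 1.55 ± 0.207 and 0.850 ± 0.185 FPKM on high-fat feed alone.

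Other lower calls lie in introns of St3gal5, Pik3c2a and Bace1. St3gal5 encodes the synthase of the ganglioside GM3. The RNA Gm29438 in its intron (chr6:72104201-72106813) stood at 4.61, 9.05, 6.56 and 6.54 FPKM on ordinary feed and 3.07, 2.24, 2.37 and 1.98 under metformin. It fell by 1.15 (SE 0.182, limma adjusted p = 0.0191), and no metformin library reached the ordinary-feed range. Pik3c2a encodes a class II phosphoinositide 3-kinase of endocytic membranes. The RNA C430039J01Rik in its intron (chr7:116409847-116410803) stood at 1.53 ± 0.223 FPKM on ordinary feed and 0.647 ± 0.115 under metformin, from 11 to 44 reads per library. It fell by 0.62 (limma adjusted p = 0.0191), and no library of another group reached 1 FPKM, so it was tested only through its ordinary-feed values. The neighbouring Gm45033 in the same gene missed the threshold at -0.76 (adjusted p = 0.0545). Gm45033 too needed its ordinary-feed values to pass the filter, so it adds no support. Bace1, which encodes the beta-secretase, held the intron transcript NONMMUT068925.2 (chr9:45850059-45851750), at 3.03 ± 0.348 and 1.64 ± 0.372 FPKM. It fell by 0.62 (limma adjusted p = 0.0480), while the 3 other tested features within 20 kb were between 0.07 and 0.16 higher and were not called. Gm29438, C430039J01Rik and NONMMUT068925.2 stood at 1.67 ± 0.504, 0.588 ± 0.0771 and 1.31 ± 0.160 FPKM on high-fat feed alone.

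Intron or spanning transcripts of Ube2k, Rbfox2 and Slmap complete the lower calls inside genes. Ube2k encodes a ubiquitin-conjugating enzyme, and NONMMUT052506.2 (chr5:65587716-65588942) stood at 2.03, 2.19, 2.17 and 2.55 FPKM on ordinary feed and 1.35, 1.16, 1.02 and 1.25 under metformin. Both groups were tight and far apart, and it fell by 0.56 (SE 0.0804, limma adjusted p = 0.0121). Of the 8 fits without 1 library, only that without metformin library 2 lost it. Rbfox2 encodes a splicing regulator, and NONMMUT024077.2 in its intron (chr15:77175789-77178264) fell by 0.53 (adjusted p = 0.0444), from 2.86 ± 0.243 to 1.69 ± 0.307 FPKM. The Ube2k and Rbfox2 transcripts stood at 1.05 ± 0.0972 and 1.49 ± 0.172 FPKM on high-fat feed alone. Slmap encodes a tail-anchored membrane protein. NONMMUT020095.2 there (chr14:26532593-26534456) gave the smallest called change, -0.39 (adjusted p = 0.0491), from 1.57 ± 0.183 to 0.956 ± 0.0690 FPKM. On high-fat feed alone it lay between them, at 1.23 ± 0.105 FPKM, and did not pass against ordinary feed (-0.20, adjusted p = 0.0880). Metformin and high-fat feed alone differed there by -0.19 (95% interval from -0.36 to -0.03, adjusted p = 0.575).

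Outside genes, 4 more features rose and 1 more fell. NONMMUT003114.2 (chr1:151138185-151143841) had the largest rise on the log2 scale, from 1.60, 2.69, 2.27 and 2.76 FPKM on ordinary feed to 12.1, 15.8, 7.20 and 15.6 under metformin. It rose by 2.00 (SE 0.346, limma adjusted p = 0.0322), with a ratio of means of 5.44. High-fat feed alone was more variable, at 28.6, 10.3, 28.8 and 14.1 FPKM, overlapping the metformin values, and the difference of -0.58 had a 95% interval from -1.32 to 0.16. The 4 other tested features within 20 kb were all higher under metformin, by 0.70 to 1.00, and none was called. Of these, 3 overlap NONMMUT003114.2 and can share its reads.

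NONMMUT150635.1 (chr6:117295695-117295958), 114 kb downstream of Cxcl12, had another pattern. It stood at 0.659, 0.591, 0.361 and 0.188 FPKM on ordinary feed, 0.668, 1.22, 0.497 and 0.518 on high-fat feed alone, and 1.61, 1.504, 1.15 and 2.38 under metformin. Metformin was above ordinary feed in every library (0.87, SE 0.165, limma adjusted p = 0.0480), while high-fat feed alone did not pass (0.24, adjusted p = 0.318). The difference between the high-fat groups, 0.62 with a 95% interval from 0.27 to 0.98, did not pass over all features (adjusted p = 0.278). That interval does not allow for the choice of the feature on its metformin values. The FPKM of this transcript rest on 1 to 14 reads per library in the 8 libraries compared, so each is coarse. With resveratrol it stood at 1.43, 0.790, 1.09 and 1.16 FPKM, also above every ordinary-feed value, so the higher level was not particular to metformin. Its only tested neighbour within 20 kb, NONMMUT150637.1, did not pass (0.46, limma adjusted p = 0.335).

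NONMMUT015589.2 (chr12:106480311-106482230), 403 kb downstream of Vrk1, rested on 1 to 15 reads and rose by 1.13 (limma adjusted p = 0.0191), from 0.301 ± 0.104 to 1.88 ± 0.480 FPKM. Its overlapping neighbour NONMMUT015590.2 stood at 0.790 ± 0.286 and 2.09 ± 0.396 and did not pass (0.79, adjusted p = 0.0659). NONMMUT103630.1 (chr18:60280733-60284292), 7.46 kb upstream of the predicted gene Gm4841, rose by 0.70 (adjusted p = 0.0400), from 0.505 ± 0.152 to 1.45 ± 0.275 FPKM. It passed the filter only with its 4 metformin libraries, so its call adds no support. All 4 other tested features within 20 kb of it were higher, by 0.12 to 0.71, without a call, and 3 of them overlap it and can share its reads. NONMMUT008193.2 (chr10:128971188-128984018), 5.41 kb upstream of the olfactory receptor gene Olfr9, stood at 11.5, 10.5, 10.4 and 11.9 FPKM on ordinary feed and 3.19, 2.45, 5.72 and 2.04 under metformin. It fell by 1.54 (SE 0.303, adjusted p = 0.0491), the groups being far apart and the metformin libraries the more variable. The overlapping NONMMUT139821.1, its only tested neighbour within 20 kb, was at 2.30 ± 0.518 and 2.25 ± 0.576 FPKM and did not pass (-0.03, adjusted p = 0.971). NONMMUT015589.2, NONMMUT103630.1 and NONMMUT008193.2 stood at 2.09 ± 0.756, 1.13 ± 0.358 and 3.19 ± 1.78 FPKM on high-fat feed alone.

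The direct comparison of metformin with high-fat feed alone asks where a difference from ordinary feed was another under the drug. For the 22 called features that comparison ranged from -0.58 to 0.62, and none passed (lowest adjusted p = 0.269). The 22 were chosen on their metformin and ordinary-feed values, and the same metformin libraries enter here. Their intervals against high-fat feed do not allow for that choice. A p that misses the threshold does not show that the groups are alike, and the median SE over all tested features was 0.17. The 2 features that passed lie at Mis12 and Tacc1. Mis12 encodes a kinetochore protein. The Mis12 3' UTR transcript NONMMUT010559.2 (chr11:71025492-71027369) stood at 4.57, 4.67, 6.36 and 7.59 FPKM on ordinary feed and 8.40, 5.23, 2.45 and 7.02 under metformin. High-fat feed alone gave 0.211, 0.137, 0.163 and 0.121. The metformin libraries spread over the ordinary-feed range and beyond it on both sides, and none came near the high-fat values. Metformin was above high-fat feed by 2.45 (95% interval from 1.91 to 3.00, limma adjusted p = 0.000762), a call kept in every alternative run. Metformin and ordinary feed differed by -0.08 (95% interval from -0.62 to 0.47, adjusted p = 0.905).

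Tacc1 encodes a centrosomal coiled-coil protein that acts on microtubules. Its intron transcript NONMMUT130078.1 (chr8:25224918-25225781) moved in the other direction. It stood at 1.07, 1.26, 1.98 and 1.03 FPKM on ordinary feed, 2.50, 2.64, 3.34 and 2.69 on high-fat feed alone, and 1.13, 1.12, 0.703 and 1.04 under metformin. The metformin values were within or below those of ordinary feed and all below those of high-fat feed. Metformin was below high-fat feed (-0.93, 95% interval from -1.19 to -0.66, limma adjusted p = 0.00959). From ordinary feed it differed by -0.22 (95% interval from -0.48 to 0.05, adjusted p = 0.356). The call between the high-fat groups was lost without high-fat library 3 or metformin library 3, and when only 2 groups were fitted. For both features the resveratrol libraries also lay in the ordinary-feed range or near it, at 6.63 ± 1.68 and 1.15 ± 0.176 FPKM.

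Other features with large high-fat differences from ordinary feed, chosen after their values were seen, are given as a description. An Igfbp2 intron transcript, NONMMUT001470.2, stood at 14.1, 18.4, 18.7 and 10.8 FPKM on ordinary feed, 2.00, 3.93, 1.15 and 1.29 on high-fat feed, and 12.3, 7.16, 16.6 and 9.28 under metformin. Igfbp2 encodes a secreted binder of insulin-like growth factors. The metformin values overlapped those of ordinary feed (difference -0.45, 95% interval from -1.24 to 0.35) and all exceeded those of high-fat feed, by 2.02, without passing over all features (adjusted p = 0.0767). A 5' UTR transcript of Nrep, NONMMUT031874.2, stood at 0.171 ± 0.0858 FPKM on ordinary feed, 3.57 ± 2.04 on high-fat feed and 0.432 ± 0.447 under metformin. It differed from ordinary feed by 0.25 (95% interval from -0.38 to 0.87) and from high-fat feed by -1.60 (adjusted p = 0.0767). The Nrep transcript passed the filter only with its high-fat libraries, where it is high, so its difference from high-fat feed adds no support.

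Transcripts at Aacs, which encodes the acetoacetyl-CoA synthetase that turns ketone bodies towards lipid, separated the high-fat groups too. NONMMUT119417.1 stood at 0, 0, 0.449 and 0.156 FPKM on ordinary feed, 4.44, 1.72, 4.95 and 2.44 on high-fat feed, and 0.535, 1.43, 0.273 and 0.424 under metformin. No metformin library reached the high-fat range. Its difference from high-fat feed was -1.37 (95% interval from -2.07 to -0.68, adjusted p = 0.227). This transcript passed the filter only with its high-fat libraries, where it is high, so that difference adds no support. Its values rest on 0 to 8 reads per library in the ordinary-feed and metformin libraries.

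A set of 16 features was chosen for the largest high-fat differences in each direction, among called features without overlap and leaving out close neighbours. In 15 of the 16 the metformin mean lay between those of ordinary and high-fat feed, Gm15441 being the exception. Since they were chosen for extreme high-fat values, nothing is read from that count. Acnat1, Hdc and Egfr serve as examples. A transcript upstream of Acnat1, which encodes a peroxisomal acyl-CoA transferase, stood at 12.4 ± 1.86 FPKM on ordinary feed, 2.41 ± 0.701 on high-fat feed and 5.55 ± 0.982 under metformin (NONMMUT047231.2). A transcript spanning part of Hdc, which encodes histidine decarboxylase, gave 18.4 ± 5.49, 4.13 ± 1.62 and 7.26 ± 1.66 (NONMMUT146430.1). For both the metformin libraries were below every ordinary-feed library, by -1.03 and -1.21, and both missed the threshold (adjusted p = 0.0609 and 0.0545). A partly exonic Egfr transcript, NONMMUT008655.2, was split within the metformin group, at 13.4, 83.9, 12.6 and 40.0 FPKM. Ordinary feed gave 9.08, 10.0, 9.26 and 19.3 and high-fat feed 41.9, 73.7, 80.9 and 120. Metformin libraries 1 and 3 lay near ordinary feed and library 2 within the high-fat range, and the difference from ordinary feed, 1.22, had a 95% interval from -0.05 to 2.49.

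**Figure D3:**
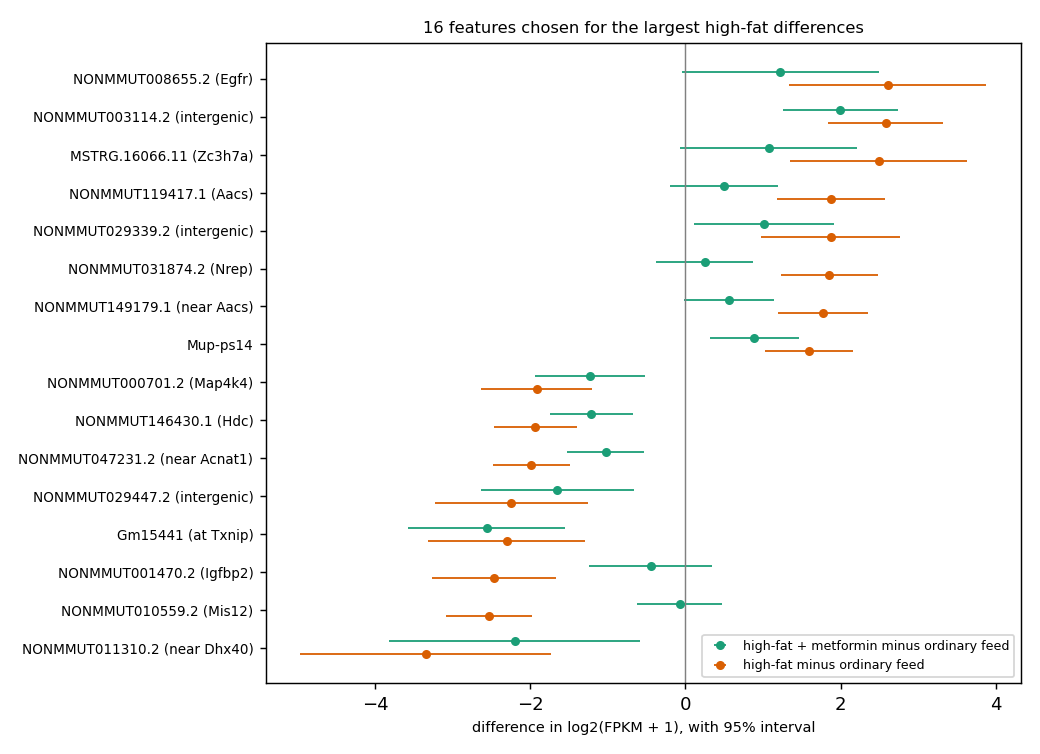
Differences in log2(FPKM + 1) from ordinary feed with 95% intervals for 16 features with large high-fat differences, under metformin (green) and on high-fat feed alone (orange). They are the largest in each direction among features called on high-fat feed without overlap, at a mean of at least 1 FPKM in the higher group. Features within 20 kb of one already taken were left out. Features were chosen on the orange values after they were seen. At Mis12, Igfbp2 and Nrep the green interval includes 0, while at Gm15441 and NONMMUT003114.2 it does not.

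Gene lists were read through the tested feature with the highest FPKM at each gene, beside a median difference of -0.09 over all tested features, of which 0.297% were called (0.0944% higher, 0.202% lower). With 1 call in a short list, nothing is read from the share. In gluconeogenesis 1 of 6 genes with a feature passed, Pck1 lower, and the median was -0.18. The features at Pcx, pyruvate carboxylase (-0.52, adjusted p = 0.160), and at Fbp1, fructose bisphosphatase (0.42, adjusted p = 0.505), did not pass. For glycolysis and ChREBP targets 1 of 3 features passed, Gm15441 at Txnip lower, and the median was 0.32. Among cholesterol genes 1 of 6 passed, Stard4 higher, with a median of 0.45. Of 11 clock genes, 1 passed, Clock lower, with a median of -0.15.

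No feature of the other metabolic lists passed. Lipogenesis had 10 features with a median of -0.13. The Scd1 3' UTR feature, at the stearoyl-CoA desaturase, stood at -1.28 (adjusted p = 0.271), and that of Insig2, which restrains SREBP processing, at -1.22 (adjusted p = 0.0838) with no overlap between the groups. Of 8 triglyceride features, Dgat2, of the last step of synthesis, was nearest to a call (0.64, adjusted p = 0.0857). The 8 of fatty acid oxidation had a median of -0.27, with the Cpt1a feature, at the mitochondrial entry step, at -0.61 (adjusted p = 0.155). Among 9 features of energy sensing the one at Stk11, which encodes the AMPK kinase LKB1, stood at -0.51 (adjusted p = 0.0721), and those at the AMPK subunit genes Prkaa2 and Prkag2 at -0.09 and -0.02. The 12 respiratory-chain features had a median of -0.21, and Atp5c1, of the ATP synthase, was at -0.58 (adjusted p = 0.0838).

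Insulin signalling had 9 features with a median of -0.05, and none passed. The stress lists had 9 features of the endoplasmic reticulum (median -0.20) and 8 of antioxidant defence (median -0.00). Bile acid and xenobiotic metabolism had 6, acute phase 4, major urinary and sex-biased proteins 6, amino acid metabolism 8 and hepatocyte transcription factors 11, without a call. Hnf4a is in the first and last of these lists. Its called transcript MSTRG.25288.3 is not counted there, because another feature at Hnf4a has a higher FPKM and represents the gene. Of 27 long non-coding RNAs studied in liver or metabolism only Gm15441 passed. Malat1, at -0.62 (adjusted p = 0.729), and Neat1, at -0.39 (adjusted p = 0.809), did not pass. By place, 7 of 2822 intronic features tested were called (0.248%), all lower, and 6 of 1606 intergenic ones (0.374%), 4 higher and 2 lower. In 3' UTRs 2 of 963 were higher and 1 lower (0.312%), among spanning features 1 of 1125 higher and 3 lower (0.356%), and among partly exonic ones 2 of 716 lower (0.279%). Of 181 other exonic features none was called. The shares of the 5 places with a call are near the 0.297% of all features.

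The deposited files list few transcripts at cell type markers. Tested features lay at 4 of 9 hepatocyte genes, with a summed level of 63.3 to 93.9 FPKM on ordinary feed and 78.9 to 91.8 under metformin. They lay at 1 of 8 genes for macrophages (Csf1r, 0.111 to 3.31 and 0.121 to 3.198 FPKM) and 1 of 8 for stellate cells (Reln, 0.384 to 1.40 and 0.583 to 1.93). None was called, and the other 7 marker lists had no tested feature. In whole liver, fewer cells of a type and less RNA per cell cannot be told apart.

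Library totals were 17.2 to 25.7 M reads (M for mega) on ordinary feed and 17.6 to 23.5 M under metformin. Reads on the listed transcripts made up 16.9 ± 1.34% and 18.004 ± 1.21% of them (SD, n = 4, two-sided exact permutation p = 0.314). Of the listed reads, the 7SL RNA of the signal recognition particle took 45.5 ± 2.81% on ordinary feed and 52.0 ± 2.33% under metformin. The lowest metformin library, at 49.6%, was above the highest of ordinary feed, at 49.3%. That difference of 6.48 percentage points gave an exact permutation p of 0.0286, the smallest that 4 against 4 allow (0.0571 adjusted over the 2 measures). Relative to a geometric-mean library, the median ratio was 1.08 to 1.15 on ordinary feed and 1.07, 1.09, 0.944 and 0.885 in the metformin libraries. In FPKM as deposited 64.7% of features were lower under metformin, and 68.2% of the calls. After median-ratio scaling 60 features were called, 43 higher and 17 lower (28.3% lower), and after quantile normalization 60, 39 higher and 21 lower (35.0% lower). The excess of lower calls therefore turned with the scaling, while 17 and 18 of the 22 features were called under them. The transcripts at Slmap, Bace1, Dnm1l and Ctcfl were lost under both, and that at Rbfox2 under median-ratio scaling.

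**Figure D4:**
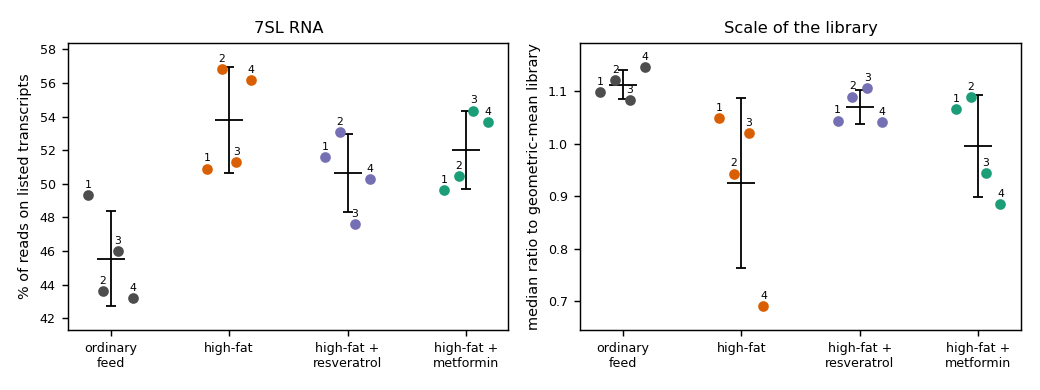
Share of listed reads on the 7SL RNA (left) and median ratio of each library to the geometric-mean library (right), by group, with library numbers, group mean and SD. Metformin libraries 3 and 4 have the highest 7SL shares and the lowest ratios of their group, and high-fat library 4 has the lowest ratio of all, 0.691.

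High-fat library 4 is in neither group of the comparison, but the fit takes its estimate of spread from all 16 libraries. With that library left out of the fit, an alternative chosen after seeing the data, 260 features were called, 64 higher and 196 lower, among them all 22. With the 2 groups fitted by themselves 12 were called, 6 in each direction, of which 4 were among the 22.

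**Figure D5:**
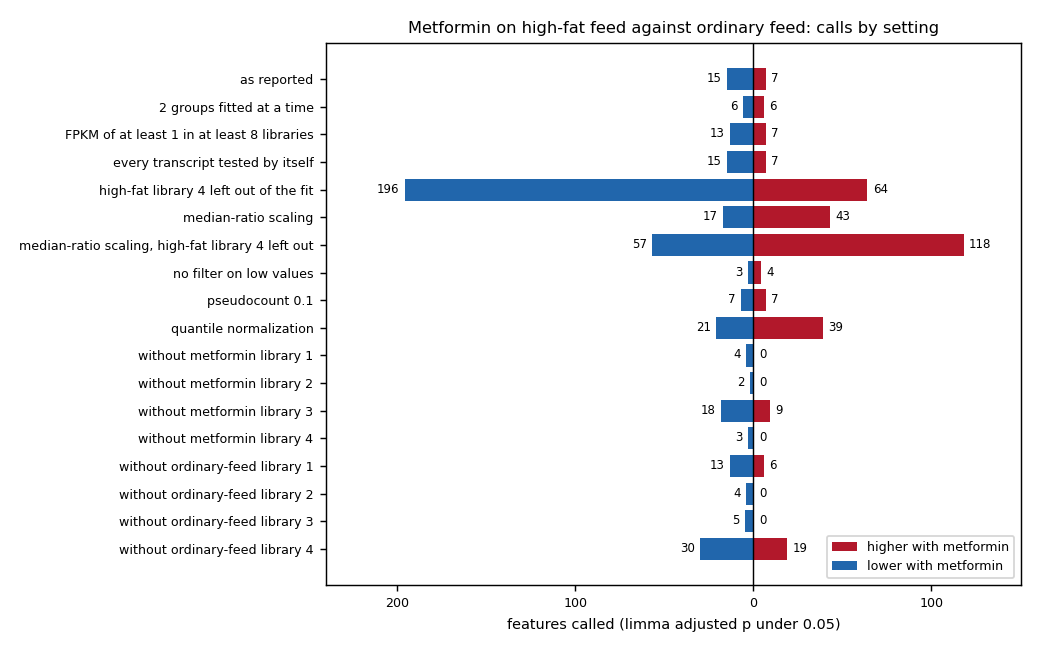
Number of features called between metformin on high-fat feed and ordinary feed under each setting, higher to the right and lower to the left. The count runs from 2, without metformin library 2, to 260, with high-fat library 4 left out of the fit.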

How the data were processed

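The authors deposited 1 file of FPKM values per library, and all list the same 51024 transcripts. The submitters' processing notes name GRCm38, Bowtie 0.12.2 and Cufflinks 2.1.1. The annotation, any filter and the use of strand are not stated there. FPKM of the transcripts of 1 Ensembl gene were summed, and features were placed by position against coding genes of GENCODE M21 (exonic with at least 50% of their length in exons). Reads per feature were recovered from the FPKM steps, whole within 0.05 of a read in at least 99.997% of values. With R 4.3.3, limma 3.58.1 (trend option) was fitted to log2(FPKM + 1) of all 16 libraries (12 residual degrees of freedom), after being tested on simulated data. Library measures were compared by exact permutation (scipy 1.17.1). Libraries were numbered in order of deposit. Nothing says that they come from separate animals, so p-values measure the spread between libraries, which may be technical.

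All called features are named: 18 by a rule of size, level or list, and 4 (Slmap, Rbfox2, Ube2k, Bace1) beside it. The comparison, members and lists were chosen with earlier results of these data known. Alternatives covered pseudocount, filters, scaling, samples in the fit, single transcripts and each library left out.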

Additional observations from a re-analysis of the deposited data

Results flagged for a closer look

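In the Pck1 upstream transcript NONMMUT041547.2, metformin library 2 stood apart from its group, at 0.949 FPKM against 1.32 to 1.38 in the other 3. Its gap to the nearest library was 0.845 of the group's range, above Dixon's 95% critical value for 4 samples. The test was made on 78 groups of values, of which chance sets apart about 1 in 20. Without metformin library 2 the difference from ordinary feed was -0.80 (limma adjusted p = 0.0548), against -0.86 with all libraries. The call was also lost without metformin library 1 or 4, or ordinary-feed library 2 or 3, with no filter on low values, and in a fit of the 2 groups alone. Over all alternatives the adjusted p ran from 0.00160 to 0.0777.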

How the results depend on the processing

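Between metformin and ordinary feed, 22 features became 12 with 2 groups fitted at a time, 7 with no filter on low values, 14 with a pseudocount of 0.1, 60 with median-ratio scaling, 60 with quantile normalization, 175 with median-ratio scaling and high-fat library 4 left out, and 260 with that library left out of the fit. They were 2 to 49 with each library left out in turn. The 1085 between high-fat and ordinary feed became 449, 274, 990, 813, 721 and 531 under the first 6 of these settings, and 539 to 1181. The 2 between the high-fat groups became 3, 4, 2, 8, 7 and 10, and 1 to 9. A stricter filter or single transcripts left all 3 counts within 1.5 times. The 7SL difference was 5.70 to 7.74 points without each library, with an exact permutation p of 0.0571 with 3 metformin libraries and 0.0286 with 3 of ordinary feed. The cause of the other changes was not tested. Low features limit precision: 2 calls rest on at most 15 reads per library. No paired analysis was possible because the labels carry no replicate numbers, and the title prefixes of the groups compared are not shared.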
